A study of Homo sapiens with 24 samples.

Results

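The transcripts of 32 genes that carry pyruvate into mitochondria, run the tricarboxylic acid (TCA) cycle, refill it, and handle glutamate and aspartate were followed in 3 human cancer cell lines. The genes were taken by name from a table of 60504 gene rows, and all 32 were found there. The lines were A375 (labelled melanoma), SK-Hep1 (labelled liver) and SKBR3 (labelled breast). Cells received small interfering RNA (siRNA) against GCDH (siGCDH), which encodes the lysine-degrading enzyme glutaryl-CoA dehydrogenase, or a control siRNA (siControl), and were harvested 48 hours later. A375 was measured in 2 batches, so that 24 RNA sequencing libraries fell into 8 groups of 3. Batch 1 of A375 was made with a kit that reads the 3′ ends of transcripts, and batch 2, SK-Hep1 and SKBR3 with a full-length kit on poly(A) RNA, so that batch and kit cannot be told apart. Neither the siRNA sequences nor any pooling of siRNAs is stated in the sources used here.

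Pyruvate made by glycolysis enters mitochondria through the carrier MPC1/MPC2 and becomes acetyl-CoA in the pyruvate dehydrogenase complex, which kinases (PDK) switch off and phosphatases (PDP) switch on. The cycle condenses acetyl-CoA with oxaloacetate to citrate, oxidises it by way of 2-oxoglutarate, succinyl-CoA, fumarate and malate, and forms oxaloacetate again. Carbon is added by pyruvate carboxylase and by glutamate, made from glutamine, that becomes 2-oxoglutarate, a route well known in proliferating cancer cells. Malic enzymes turn malate back into pyruvate. Cytosolic and mitochondrial forms of malate dehydrogenase and aspartate transaminase together carry reducing equivalents between these compartments.

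Levels are in TPM, a share of the library's transcripts corrected for length, and a ± marks the SD among a group's 3 libraries. A375 batch 1 reads 3′ ends, so this correction gives it no scale in common with the full-length libraries or between its genes. Read totals are unknown, and fewer cells and less RNA per cell cannot be told apart. Replicates were wells, so a p-value measures well-to-well spread, which may be technical. With siGCDH, GCDH itself stood at 20.8% (A375 batch 1), 17.8% (A375 batch 2), 29.3% (SK-Hep1) and 26.4% (SKBR3) of its siControl level, with no overlap between the groups (exact two-sided permutation p = 0.1 in each, the smallest that 3 against 3 allows). In A375 batch 1 GCDH was at 6.69, 4.76 and 1.77 TPM with siControl and at 1.5, 0.94 and 0.31 TPM with siGCDH, and limma did not call it there (adjusted p = 0.118). In A375 batch 1, 6 chromosome 21 rows that overlap ribosomal RNA genes took 17.1 ± 2.07% of TPM with siControl and 33.0 ± 1.65% with siGCDH, against at most 0.0838% in the other groups. The libraries labelled SKBR3 held 6 of 10 breast and HER2 markers at 1 TPM or more, with a sum of 96.4 to 100.2 TPM with siControl and 140.9 to 161.9 TPM with siGCDH. The same list stood at 404 to 421 TPM with siControl and 284 to 295 TPM with siGCDH in A375 batch 2, with 5 of 10 at 1 TPM or more. In SK-Hep1, labelled liver, 8 of 10 reached 1 TPM with CDH1 at 0, and the sum went from 6374 to 6642 TPM with siControl to 3469.8 to 3616 TPM with siGCDH. ERBB2, the receptor gene known to be amplified in SKBR3, was at 25.5 ± 2.23 TPM there with siControl and at 46.4 ± 5.12 TPM in SK-Hep1, so these libraries go against their label, and SKBR3 stands here only for the libraries so labelled. SK-Hep1 had the hepatocyte genes ALB, APOA1, APOB, HNF4A and TTR at 0. All 7 hepatocyte markers there summed to 8.81 to 11.6 TPM with siControl, with 1 of 7 at 1 TPM or more. With siGCDH they summed to 36.1 to 37.6 TPM, with 2 of 7 at that level. The 5 fibroblast markers of SK-Hep1 went from a summed 242 to 258 TPM with siControl to 64.3 to 66.8 TPM with siGCDH. The part of these markers in the results was not tested. A375 had 4 of 8 melanocyte markers at 1 TPM or more in each of its groups. All 8 summed to 633 to 670 TPM with siControl and 652 to 716 TPM with siGCDH in batch 2. In batch 1 they summed to 208 to 218 TPM and 150 to 183 TPM. The melanocyte factor gene SOX10 was at 457 ± 14.5 TPM in batch 2, with the pigment enzyme gene TYR at 0 in the siControl libraries of both batches. In batch 1 PMEL was also at 0 in both groups, and MLANA with siGCDH.

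The enzymes did not move as a block. In A375, the transcript of cytosolic malate dehydrogenase, MDH1, fell in both batches, to 36.9% and 50.7% of siControl. The batch 1 value is on TPM that still holds the chromosome 21 rows. Its call was lost without the second or the third siControl library. In batch 2, 38.7% of the 31 tested members were called, against 33.6% of all genes, and 19 members did not pass. In SK-Hep1 and in the libraries labelled SKBR3, the transcripts of glutamate dehydrogenase (GLUD1), citrate synthase (CS) and the GDP-forming succinyl-CoA ligase subunit (SUCLG2) fell, none of which was called in A375. That of cytosolic aconitase (ACO1) fell to 22.9% and 50.9% of siControl there and to 82.8% in A375 batch 2. Those of mitochondrial isocitrate dehydrogenase IDH2 and the mitochondrial phosphoenolpyruvate carboxykinase gene PCK2 fell in batch 2 of A375, in SK-Hep1 and in SKBR3. The calls of ACO1 in A375 batch 2 and of PCK2 in A375 batch 2 and SK-Hep1 were lost when certain single libraries were left out.

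Each line and batch was tested with limma on log2(TPM + 1) over all genes whose mean reached 1 TPM, and a gene was called at a Benjamini-Hochberg adjusted p under 0.05. A fold change on this scale understates that of genes with few TPM. In A375 batch 1, 30 members could be tested, of which 0 rose and 1 fell (MDH1), against 7.91% of all genes called (1.18% higher and 6.73% lower). Another 29 members did not pass, 7 members had an unadjusted p under 0.05, and the median log2 change was -0.32 for members and -0.20 for all genes. Members below 0 were 28 of 30, and 16 of 31 once the chromosome 21 rows were removed and TPM rescaled. Without those rows 488 of 13668 genes were called, 269 higher and 219 lower, so the lean of all genes to lower calls was not kept. Of the members, 0 were then called higher and 1 lower. In A375 batch 2, 4 of 31 members rose and 8 fell, against 33.6% of all genes called (17.9% higher and 15.7% lower), with medians of -0.05 for members and 0.02 for all genes.

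In SK-Hep1, 16 of 31 members rose and 7 fell, against 55.5% of all genes called (37.3% higher and 18.2% lower), with medians of 0.19 for members and 0.18 for all genes. Median scaling, which gave all libraries 1 median over expressed genes and brought the all-gene median to 0.07 here and in SKBR3 and to -0.02 in A375 batch 1, made this split 8 higher and 9 lower, and quantile normalization 9 and 9. Within SKBR3, 7 of 31 members rose and 15 fell, against 62.1% of all genes called, with medians of -0.08 for members and 0.29 for all genes. Genes called lower were 14.7% of all genes there and genes called higher 47.3%. Median scaling gave 2 members higher and 21 lower, and quantile normalization 6 and 17. The members not tested for low levels were ME3 and OGDHL in A375 batch 1, OGDHL in batch 2, PDK3 in SK-Hep1 and ME3 in SKBR3.

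**Figure D1:**
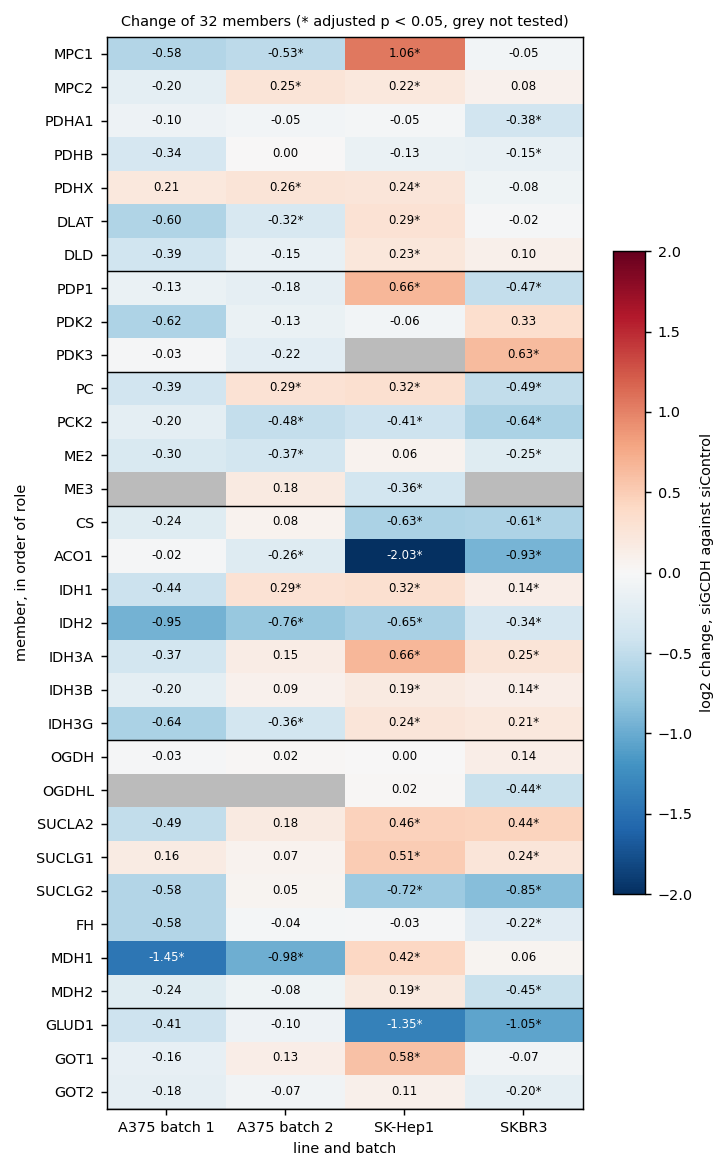
Log2 change of the 32 members (rows, in order of role) with siGCDH against siControl in each line and batch (columns), with a star at an adjusted p under 0.05 and grey where a member was too low to test. MDH1 is the darkest blue of both A375 columns (-1.45 and -0.98), and ACO1 (-2.03) and GLUD1 (-1.35) are the darkest of SK-Hep1.

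Among the 7 genes of pyruvate entry, MPC1 showed the largest change in A375 batch 2 and in SK-Hep1, in opposite directions. MPC1 (ENSG00000060762, chr6:166364919-166383013, minus strand, hg38) encodes a subunit of the mitochondrial pyruvate carrier. In A375 batch 2 it was at 35.2, 31.2 and 30.6 TPM in the siControl libraries and at 22.4, 22.9 and 21.1 TPM in the siGCDH libraries (log2 change -0.53, SE 0.08, limma adjusted p = 0.00198). In SK-Hep1 it was at 13.6, 11.2 and 10.5 TPM with siControl and at 23.3, 30.7 and 23.0 TPM with siGCDH (log2 change 1.06, SE 0.14, limma adjusted p = 0.000418). Neither pair of groups overlapped, and the siGCDH means were 68.4% of siControl in the former and 218.5% in the latter. In SKBR3 it ranged from 87.6 to 100.4 TPM with siControl and from 80.4 to 97.9 TPM with siGCDH, and these groups overlapped (log2 change -0.05, 95% interval -0.25 to 0.15). A375 batch 1 had 16.2 ± 3.36 TPM with siControl and 10.4 ± 1.45 TPM with siGCDH, without overlap, and its log2 change of -0.58 was not called (limma adjusted p = 0.162).

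MPC2, the partner of MPC1 in the carrier, rose by 0.25 in A375 batch 2 and by 0.22 in SK-Hep1 on the log2 scale. The batch 2 call was lost when any library but siGCDH replicate 3 was left out (adjusted p 0.0604 to 0.0713), and the SK-Hep1 call under median scaling (0.10, adjusted p = 0.107). DLAT encodes the acetyltransferase core of pyruvate dehydrogenase. It stood at 49.9, 54.3 and 52.5 TPM with siControl in A375 batch 2 and at 41.1, 39.9 and 44.0 TPM with siGCDH (log2 change -0.32, SE 0.06, limma adjusted p = 0.00695). In SK-Hep1 it stood at 45.7, 40.5 and 45.8 TPM with siControl and at 54.9, 53.4 and 53.9 TPM with siGCDH (0.29, SE 0.07, adjusted p = 0.00639). The groups were apart in both lines, and the SK-Hep1 rise was 0.18 under median scaling (adjusted p = 0.0515).

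Among the other subunits, PDHX, which binds DLD to the complex, rose by 0.26 in A375 batch 2 and by 0.24 in SK-Hep1. The batch 2 call was lost without the first siControl library (0.22, adjusted p = 0.0512) or the third siGCDH library (0.26, adjusted p = 0.0503). That of SK-Hep1 was lost without any of 5 of the 6 libraries, the exception being the first siControl library (adjusted p 0.0763 to 0.112). Median scaling ended the SK-Hep1 call too (0.12, adjusted p = 0.237). DLD, the dihydrolipoamide dehydrogenase shared with 2-oxoglutarate dehydrogenase, rose by 0.23 in SK-Hep1, and by 0.11 under median scaling, where the call was lost (adjusted p = 0.0822). PDHA1 and PDHB encode the pyruvate-decarboxylating subunit, and both fell in the libraries labelled SKBR3. PDHA1 went there from 377, 382 and 383 TPM to 276, 301 and 301 TPM (log2 change -0.38, SE 0.04, limma adjusted p = 0.000225). PDHB changed by -0.15, a call lost without the second siControl library (-0.13, adjusted p = 0.0574) or the third siGCDH library (-0.13, adjusted p = 0.0543).

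**Figure D2:**
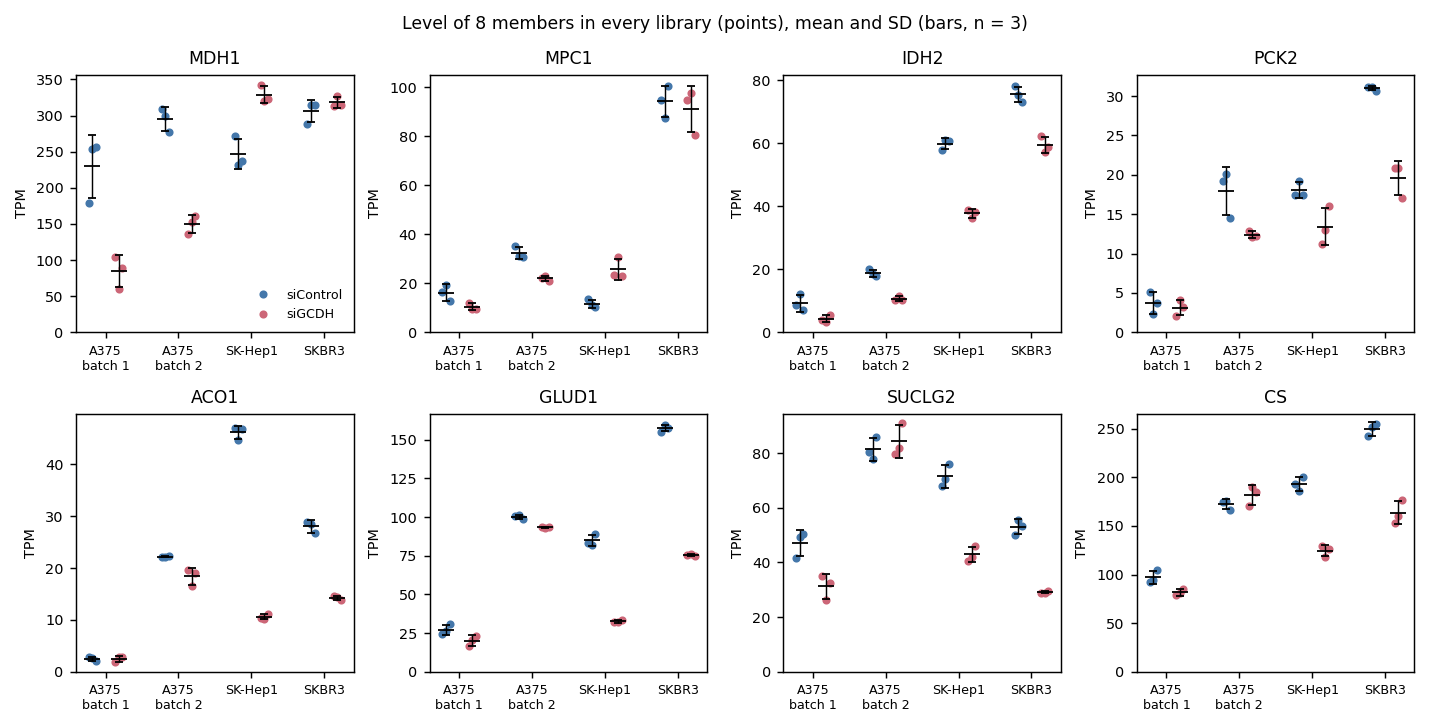
TPM of 8 members in every library (points) with the mean and SD of each group (bars, n = 3), by line and batch, with siControl in blue and siGCDH in red. MDH1 is lower with siGCDH only in the A375 panels (149.6 against 295 TPM in batch 2), and ACO1, GLUD1, SUCLG2 and CS are lower in SK-Hep1 and SKBR3.

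A word of 7 bases, ACTGAGA, had been found in an earlier analysis of these libraries to be more common in the 3′ untranslated regions (UTRs) of genes that fell in A375, so its presence among the members is a description. It is shown to let the members with and without it be compared. GENCODE 29 UTRs on hg38, searched on the transcript strand, hold it in 4 of the 32 members, MPC2, DLAT, PDP1 and IDH3A, and MDH1 lacks it. The sequence around the word in PDP1 was left out of those printed here. Sites in MPC2 (chr1:167917914-167917920, minus strand), DLAT (chr11:112063213-112063219, plus strand) and IDH3A (chr15:78170538-78170544 and chr15:78170606-78170612, plus strand) are given 5′ to 3′, with the word in capitals and 11 bases on either side.
MPC2: ttgctgaagagACTGAGAaatgggtagtg
DLAT: tacttgatgtaACTGAGAatttgtgtgga
IDH3A, upstream site: agaattccaaaACTGAGAtgtttgctttc
IDH3A, downstream site: ctcagcttgctACTGAGAatggctgcttc
In A375 batch 2, DLAT fell by 0.32 on the log2 scale, MPC2 rose by 0.25, and PDP1 (-0.18) and IDH3A (0.15) did not pass. Of all genes searched in that batch, 15.9% held the word, with a median change of -0.11 and 29.05% called lower, against 0.03 and 16.3% of those without it, which restates how the word was found. Genes called lower were 9.70% with the word and 7.07% without it in A375 batch 1, 20.4% and 20.8% in SK-Hep1, and 17.2% and 18.3% in SKBR3.

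Among the genes that switch pyruvate dehydrogenase, PDP1 moved in opposite directions in SK-Hep1 and SKBR3. It encodes a phosphatase that activates the complex. In SK-Hep1 it was at 42.5, 41.3 and 40.5 TPM with siControl and at 60.7, 67.1 and 70.1 TPM with siGCDH (log2 change 0.66, SE 0.07, limma adjusted p = 0.000131). Among the SKBR3 libraries it was at 11.3, 9.19 and 9.86 TPM with siControl and at 6.67, 7.0 and 7.28 TPM with siGCDH (-0.47, SE 0.10, adjusted p = 0.00558). The 2 siRNA groups were apart in each line. PDK3, a kinase that inactivates the complex, rose in the libraries labelled SKBR3 from 8.69, 10.2 and 10.3 TPM to 14.6, 16.7 and 15.7 TPM (0.63, SE 0.10, adjusted p = 0.00104). In SK-Hep1 it was under the 1 TPM filter, at 0.857 ± 0.0208 TPM with siControl and 0.367 ± 0.0503 TPM with siGCDH, and its change there was not tested. PDK2, another kinase of the complex, passed in none of the 4 comparisons (log2 changes from -0.62 to 0.33), and in SKBR3 its siGCDH libraries ranged from 37.4 to 53.4 TPM. In A375, neither PDP1 (-0.13 and -0.18) nor PDK3 (-0.03 and -0.22) passed in either batch.

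Of the 4 genes that feed or drain the cycle, PCK2, which makes phosphoenolpyruvate from oxaloacetate in mitochondria, fell in 3 of the 4 comparisons. In the libraries labelled SKBR3 it was at 31.2, 31.2 and 30.7 TPM with siControl and at 20.9, 20.9 and 17.1 TPM with siGCDH (log2 change -0.64, SE 0.09, limma adjusted p = 0.000594). PCK2 in A375 batch 2 went from 19.2, 20.1 and 14.5 TPM to 12.9, 12.1 and 12.2 TPM (-0.48, SE 0.13, adjusted p = 0.0222). In SK-Hep1 it went from 17.5, 19.3 and 17.4 TPM to 11.2, 13.1 and 16.0 TPM (-0.41, SE 0.13, adjusted p = 0.0236). All 3 pairs of groups were apart, but only the SKBR3 call held with each library left out in turn. The A375 batch 2 call was lost without the first (-0.43, adjusted p = 0.0746) or second siControl library (-0.40, adjusted p = 0.0731) or the second (-0.47, adjusted p = 0.0607) or the third siGCDH library (-0.47, adjusted p = 0.0626). That of SK-Hep1 was lost without the second siControl library (-0.37, adjusted p = 0.0741) or the first (-0.30, adjusted p = 0.0578) or second siGCDH library (-0.40, adjusted p = 0.0643).

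PC, pyruvate carboxylase, which makes oxaloacetate from pyruvate, rose by 0.29 in A375 batch 2 and fell by 0.49 in the libraries labelled SKBR3. It went from 23.8, 22.3 and 22.5 TPM to 27.1, 28.98 and 28.5 TPM in the former and from 12.01, 9.84 and 9.21 TPM to 6.13, 8.56 and 6.69 TPM in the latter. The SKBR3 call was lost without the first siControl library (-0.38, adjusted p = 0.0724) or the first (-0.40, adjusted p = 0.0687) or the third siGCDH library (-0.45, adjusted p = 0.0632). In SK-Hep1 it rose by 0.32, and by 0.20 under median scaling, where the call was lost (adjusted p = 0.0527). ME2, the NAD-linked mitochondrial malic enzyme, fell in A375 batch 2 from 67.2, 59.8 and 63.3 TPM to 52.1, 44.2 and 50.4 TPM (-0.37, SE 0.08, limma adjusted p = 0.00922). It fell by 0.25 in SKBR3, a call lost without the second (-0.24, adjusted p = 0.0649) or the third siControl library (-0.20, adjusted p = 0.0791) or the first siGCDH library (-0.19, adjusted p = 0.0742). ME3, the NADP-linked mitochondrial malic enzyme, fell in SK-Hep1 from 30.1, 31.0 and 29.7 TPM to 24.2, 22.2 and 23.6 TPM (-0.36, SE 0.07, adjusted p = 0.00238).

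From citrate to 2-oxoglutarate, ACO1 showed the largest called change of any member. It lies at chr9:32384603-32454769 (ENSG00000122729, plus strand, hg38) and encodes cytosolic aconitase, which also acts as the iron-responsive RNA-binding protein IRP1. In SK-Hep1 it was at 47.0, 44.7 and 46.9 TPM with siControl and at 10.4, 10.2 and 11.1 TPM with siGCDH, which is 22.9% of siControl (log2 change -2.03, SE 0.07, limma adjusted p = 8.44e-07). Within SKBR3 it was at 28.96, 28.5 and 26.7 TPM with siControl and at 14.6, 14.4 and 13.8 TPM with siGCDH (-0.93, SE 0.07, adjusted p = 3.31e-05). Both pairs of groups were far apart relative to their spread. ACO1 in A375 batch 2 went from 22.1, 22.2 and 22.3 TPM to 19.5, 16.5 and 19.1 TPM (-0.26, SE 0.08, adjusted p = 0.0445). That small fall was not called without any siControl library (adjusted p 0.102 to 0.105) or without the second (-0.19, adjusted p = 0.0825) or the third siGCDH library (-0.29, adjusted p = 0.0709). In batch 1 it was at 2.52 ± 0.409 TPM with siControl and 2.48 ± 0.606 TPM with siGCDH, with a change of -0.02 (95% interval -0.75 to 0.70).

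CS, which makes citrate, fell to 64.6% of siControl in SK-Hep1 and to 65.5% in the libraries labelled SKBR3. Its SK-Hep1 libraries went from 193, 186 and 200.1 TPM to 129, 118 and 127 TPM (log2 change -0.63, SE 0.05, limma adjusted p = 4.61e-05). Its SKBR3 libraries went from 242, 252 and 255 TPM to 153, 160.4 and 177 TPM (-0.61, SE 0.06, adjusted p = 9.67e-05). In A375 batch 2 the groups overlapped, at 172 ± 5.08 and 182 ± 10.6 TPM (0.08, 95% interval -0.04 to 0.20). IDH2, the mitochondrial NADP-linked isocitrate dehydrogenase, fell in all 3 full-length comparisons. A375 batch 2 had it at 20.1, 18.5 and 17.8 TPM with siControl and at 10.3, 11.6 and 10.2 TPM with siGCDH (-0.76, SE 0.09, adjusted p = 0.000795). In SK-Hep1 it went from 58.0, 61.1 and 60.7 TPM to 38.9, 36.3 and 38.1 TPM (-0.65, SE 0.06, adjusted p = 6.21e-05). In SKBR3 it went from 78.1, 75.3 and 73.3 TPM to 62.5, 57.4 and 58.8 TPM (-0.34, SE 0.05, adjusted p = 0.00115). No pair of IDH2 groups overlapped, batch 1 included, where 9.29 ± 2.73 and 4.29 ± 1.12 TPM gave a change of -0.95 (adjusted p = 0.0907, not called).

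IDH1, the cytosolic NADP-linked counterpart of IDH2, was higher with siGCDH in the same 3 comparisons. It rose from 60.5, 60.8 and 64.4 TPM to 76.6, 76.6 and 75.3 TPM in A375 batch 2 (log2 change 0.29, SE 0.05, limma adjusted p = 0.00338). In SK-Hep1 it rose from 71.8, 70.4 and 74.0 TPM to 89.2, 90.9 and 91.0 TPM (0.32, SE 0.05, adjusted p = 0.000817). Among the SKBR3 libraries the change of 0.14 (adjusted p = 0.0371) was not called without any of the 6 libraries (adjusted p 0.0589 to 0.105), and it was -0.10 under median scaling.

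IDH3A, IDH3B and IDH3G encode the NAD-linked enzyme of the cycle. IDH3A rose in SK-Hep1 from 26.0, 29.7 and 37.9 TPM to 42.4, 57.2 and 49.3 TPM (log2 change 0.66, SE 0.15, limma adjusted p = 0.0069), the groups being apart although the libraries of each were spread. In the libraries labelled SKBR3 it rose by 0.25, but by 0.02 under median scaling (adjusted p = 0.862), and the call was also lost without the first siGCDH library (0.22, adjusted p = 0.0633). IDH3G fell in A375 batch 2 from 81.0, 74.7 and 76.5 TPM to 53.7, 58.9 and 68.0 TPM (-0.36, SE 0.09, adjusted p = 0.0164), a call lost without the first siControl library (-0.33, adjusted p = 0.0571). It rose in SK-Hep1, from 91.7, 106 and 98.1 TPM to 118, 118 and 113 TPM (0.24), and by 0.12 under median scaling, where the call was lost (adjusted p = 0.177). In SKBR3 IDH3G was higher by 0.21 and IDH3B by 0.14, and under median scaling both turned, to -0.03 and -0.10. IDH3B was higher by 0.19 in SK-Hep1 and by 0.07 under median scaling, where it was not called (adjusted p = 0.375). Leaving out libraries ended the IDH3B calls too: in SK-Hep1 4 of the 6 libraries did so, all but the first siControl and the third siGCDH library (adjusted p 0.0511 to 0.0989), and in SKBR3 also 4, all but replicate 3 of each group (0.0524 to 0.0566).

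From 2-oxoglutarate to oxaloacetate, MDH1 (ENSG00000014641, chr2:63588609-63607197, plus strand, hg38) was the member with the largest called change in A375. In batch 2 it was at 309, 299 and 277 TPM in the siControl libraries and at 136, 152 and 161 TPM in the siGCDH libraries (log2 change -0.98, SE 0.07, limma adjusted p = 7.75e-05). In batch 1 it was at 179, 254 and 257 TPM with siControl and at 105, 60.1 and 89.7 TPM with siGCDH (-1.45, SE 0.23, adjusted p = 0.0141). The groups were apart in both batches. The batch 1 call was lost without the second (-1.36, adjusted p = 0.0561) or the third siControl library (-1.36, adjusted p = 0.0568). It was also lost in limma fits without a trend (adjusted p = 0.0650) or with a block for the replicate number (adjusted p = 0.0512). The call held when the chromosome 21 rows were removed (adjusted p = 0.0339). In SK-Hep1 MDH1 rose, from 271, 232 and 238 TPM to 343, 321 and 324 TPM (0.42, SE 0.06, adjusted p = 0.00105). Within SKBR3 it was at 306 ± 15.2 and 318 ± 7.93 TPM, with overlap (0.06, 95% interval -0.05 to 0.16).

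MDH2, the mitochondrial malate dehydrogenase, rose in SK-Hep1 and fell in the libraries labelled SKBR3. In SKBR3 it went from 515, 487 and 525 TPM to 376, 352 and 392 TPM (log2 change -0.45, SE 0.05, limma adjusted p = 0.000203). In SK-Hep1 it went from 275, 276 and 257 TPM to 319.7, 318 and 286 TPM (0.19, SE 0.06, adjusted p = 0.0214), with the groups apart. That rise was lost without the third siControl library (0.16, adjusted p = 0.0739) or the first (0.16, adjusted p = 0.0614) or second siGCDH library (0.17, adjusted p = 0.0756), and under median scaling (0.07, adjusted p = 0.391). FH, fumarase, fell by 0.22 in SKBR3 and did not pass elsewhere (-0.58 to -0.03).

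The succinyl-CoA ligase is built from the shared subunit SUCLG1 with SUCLA2 (ADP-forming) or SUCLG2 (GDP-forming). In SK-Hep1, SUCLG2 went from 68.0, 70.5 and 76.0 TPM to 40.6, 42.1 and 46.1 TPM (log2 change -0.72, SE 0.07, limma adjusted p = 0.000101). In SKBR3 it went from 50.2, 55.7 and 53.5 TPM to 28.8, 28.9 and 29.5 TPM (-0.85, SE 0.06, adjusted p = 2.6e-05). SUCLA2 rose in both, to 139% and 136% of siControl (0.46 and 0.44), as did SUCLG1 (0.51 and 0.24). The SUCLG1 change in SKBR3 was 0.00 under median scaling (adjusted p = 0.947). None of the 3 passed in A375 batch 2 (0.05 to 0.18). OGDH, the 2-oxoglutarate dehydrogenase, passed nowhere and changed by -0.03 to 0.14. OGDHL, its tissue-restricted relative, fell by 0.44 in SKBR3, from 13.6, 10.8 and 11.3 TPM to 8.60, 8.68 and 8.23 TPM, and in A375 batch 2, where it was too low to test, its means were 1.24 TPM with siControl and 0.313 TPM with siGCDH.

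GLUD1 (ENSG00000148672, chr10:87050486-87094866, minus strand, hg38) encodes glutamate dehydrogenase, which turns glutamate into 2-oxoglutarate. In SK-Hep1 it was at 83.5, 82.2 and 89.1 TPM with siControl and at 32.3, 32.02 and 33.6 TPM with siGCDH (log2 change -1.35, SE 0.06, limma adjusted p = 2.06e-06). Among the SKBR3 libraries it was at 155, 159 and 158 TPM with siControl and at 75.2, 76.1 and 74.6 TPM with siGCDH (-1.05, SE 0.04, adjusted p = 2.04e-06). The libraries of each group lay close together, and the siGCDH means were 38.4% and 47.8% of siControl. In A375 batch 2 GLUD1 was at 100.2 ± 1.42 and 93.4 ± 0.304 TPM, without overlap, a change of -0.10 that did not pass (adjusted p = 0.0965). GLUD1 has near-identical copies, GLUD2 among them, which was at most 2.79 TPM as a group mean, and the division of reads among them by the authors' software makes its level uncertain.

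The aspartate transaminases changed less. GOT1, the cytosolic form, rose in SK-Hep1 from 45.6, 39.0 and 39.2 TPM to 63.2, 64.2 and 58.8 TPM (log2 change 0.58, SE 0.08, limma adjusted p = 0.000486). It passed in no other comparison, with changes of -0.16 to 0.13. GOT2, the mitochondrial form, fell by 0.20 in the libraries labelled SKBR3, from 194, 191 and 189 TPM to 166, 164 and 169 TPM, and changed by -0.18 to 0.11 elsewhere.

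Whether the effect of siGCDH itself differed between lines was tested as an interaction on 12 libraries. Between A375 batch 2 and SK-Hep1, the log2 change was higher in A375 for 5 of 32 members and lower for 12. Of all genes, 46.2% were called (17.4% higher and 28.8% lower). OGDHL, among the 12 lower, entered this fit through its SK-Hep1 level (3.08 and 3.15 TPM). Its A375 batch 2 means were 1.24 and 0.313 TPM, too low to test on their own. The largest differences were those of ACO1 (1.77, SE 0.10, limma adjusted p = 1.56e-07), MPC1 (-1.59, SE 0.17, adjusted p = 1.8e-05), MDH1 (-1.39, SE 0.10, adjusted p = 1.21e-06) and GLUD1 (1.25, SE 0.06, adjusted p = 5.7e-08). Between A375 batch 2 and the libraries labelled SKBR3, the change was higher in A375 for 12 members and lower for 7. Of all genes, 51.4% were called (14.5% higher and 36.8% lower). The largest were MDH1 (-1.04), GLUD1 (0.95), SUCLG2 (0.90) and PDK3 (-0.85), with limma adjusted p from 5.37e-08 to 0.000418. Median scaling moved that split to 15 higher and 3 lower. The change of MDH1 in A375 differed from that in each of the other lines, in tests that share the A375 libraries.

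Between SK-Hep1 and SKBR3, the log2 change was higher in SK-Hep1 for 16 of 32 members and lower for 5. Of all genes, 39.5% were called (14.5% higher and 25% lower). PDP1 (1.13, SE 0.11, limma adjusted p = 2.68e-05), MPC1 (1.11, SE 0.18, adjusted p = 0.000567), ACO1 (-1.10, SE 0.08, adjusted p = 3.87e-06) and PDK3 (-1.08, SE 0.14, adjusted p = 0.000152) differed most. PDK3 entered this fit through its SKBR3 level alone, being under 1 TPM in both SK-Hep1 groups, and its difference ran from -1.72 to -0.61 over the alternatives. ME3, among the 5 lower, entered it through its SK-Hep1 level alone, with means of 0.0367 and 0.407 TPM in the SKBR3 groups. The falls of CS and SUCLG2 did not pass as different between these lines, with differences of -0.02 (95% interval -0.19 to 0.15) and 0.13 (95% interval -0.07 to 0.32). Between the A375 batches, 1 of 31 members passed, against 5.23% of all genes (4.78% higher and 0.447% lower). It was IDH1 (0.73, SE 0.18, adjusted p = 0.037), whose change was 0.29 in batch 2 and -0.44 in batch 1, and which was not called after median scaling (0.51, adjusted p = 0.147). Without the chromosome 21 rows 0 members passed. MDH1 differed there by 0.47 (95% interval -0.11 to 1.05) and did not pass.

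**Figure D3:**
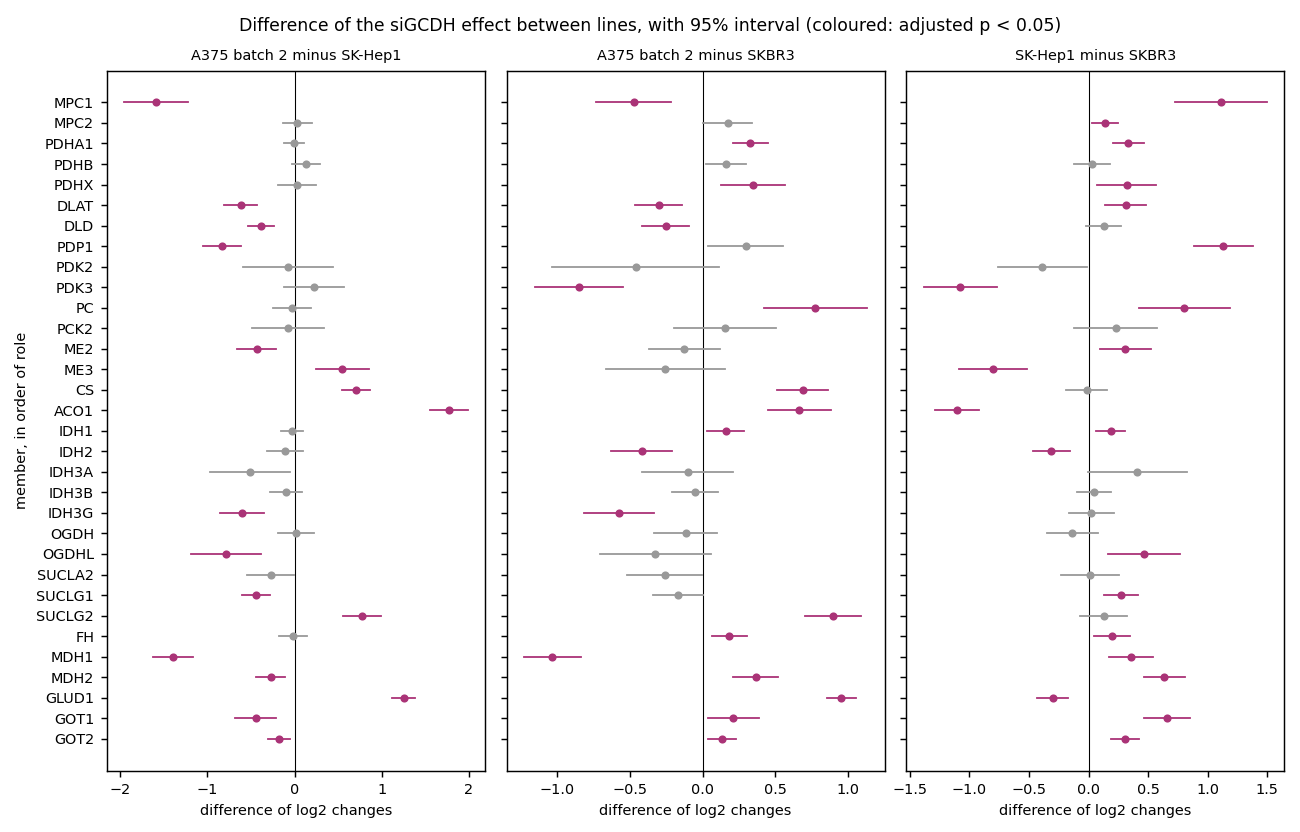
Difference of the log2 change with siGCDH between lines (points) with its 95% interval (lines) for the 32 members, in 3 panels that each set 2 lines against each other, coloured at an adjusted p under 0.05 and grey otherwise. MDH1 lies left of 0 in both panels that hold A375, at -1.39 and -1.04.

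Levels before any loss of GCDH were compared in the 9 siControl libraries of the full-length kit. MDH2, MDH1 and PDHA1 were the 3 most abundant members in each line. MDH2 was at 424 TPM in A375 batch 2, 269.5 TPM in SK-Hep1 and 509 TPM in SKBR3, and PDHA1 at 226, 299 and 381 TPM. The least abundant was OGDHL in A375 (1.24 ± 0.294 TPM), PDK3 in SK-Hep1 and ME3 in SKBR3, where ME3 is listed at 0 in 2 libraries and at 0.11 TPM in the other. A375 batch 2 had 19 of 32 members higher and 10 lower than SK-Hep1, against 73.5% of all genes called (45% higher and 28.6% lower), and 13 and 11 under median scaling. It had 10 higher and 18 lower than SKBR3, against 74.6% of all genes (34.4% higher and 40.2% lower). SK-Hep1 had 7 higher and 21 lower than SKBR3, against 77.4% of all genes (28.5% higher and 48.9% lower).

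The largest differences between lines were those of ME3, MPC1, PDP1, PDK3, IDH2 and OGDHL. ME3 was at 7.13 ± 0.249 TPM in A375 and 30.2 ± 0.666 TPM in SK-Hep1 (log2 difference -1.94, SE 0.08, limma adjusted p = 4.55e-08). MPC1 was at 32.3 ± 2.45 TPM in A375, 11.8 ± 1.62 TPM in SK-Hep1 and 94.2 ± 6.41 TPM in SKBR3, and the difference between the latter lines was -2.91 (SE 0.10, adjusted p = 7.01e-09). PDP1 was at 63.5 ± 1.71 TPM in A375, 41.4 ± 1.01 TPM in SK-Hep1 and 10.1 ± 1.07 TPM in SKBR3, and PDK3 at 6.07 ± 0.519, 0.857 ± 0.0208 and 9.75 ± 0.919 TPM. IDH2 was at 18.8 ± 1.17 TPM in A375, below 59.9 ± 1.68 TPM in SK-Hep1 and 75.6 ± 2.44 TPM in SKBR3 (differences -1.62 and -1.95). OGDHL was higher in SKBR3 than in A375 (difference -2.53, SE 0.13, adjusted p = 1.16e-07).

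**Figure D4:**
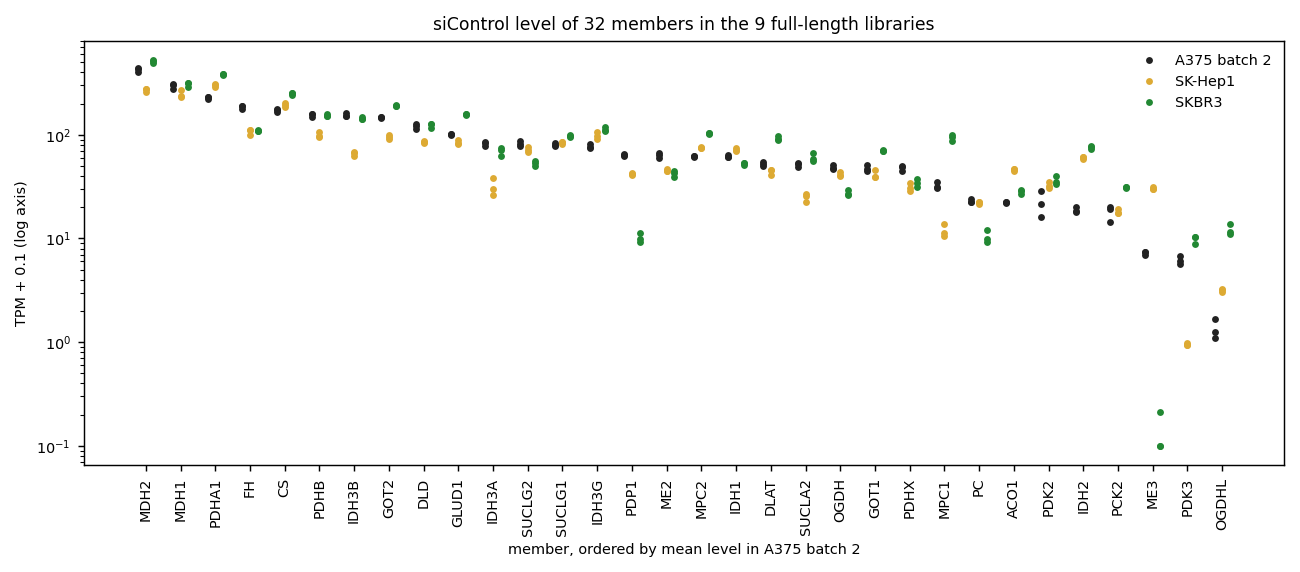
TPM of each member (with 0.1 added, log axis) in the 9 siControl libraries of the full-length kit, ordered by the mean in A375 batch 2 and coloured by line. The lines lie closer for the most abundant members than for MPC1, PDP1, ME3, PDK3 and OGDHL.

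Ratios of paired genes within a library do not change when the library is scaled by a single factor, as in median scaling. They can change under quantile normalization. They are given without a test, and those of A375 batch 1 are not on a common scale with the full-length ones. The ratio of MDH1 to MDH2 was 0.701, 0.696 and 0.690 in the siControl libraries of A375 batch 2 and 0.351, 0.383 and 0.386 with siGCDH. In the libraries labelled SKBR3 it was 0.560, 0.646 and 0.600 with siControl and 0.832, 0.930 and 0.803 with siGCDH, the opposite direction, and in SK-Hep1 it was 0.916 ± 0.0729 and 1.07 ± 0.0606. IDH1 to IDH2 was higher with siGCDH in each full-length comparison. It was 3.31 ± 0.302 with siControl and 7.14 ± 0.487 with siGCDH in A375 batch 2, and it went from 1.20 ± 0.0447 to 2.39 ± 0.107 in SK-Hep1 and from 0.701 ± 0.038 to 0.980 ± 0.0544 in SKBR3, with no overlap. The ratio of SUCLA2 to SUCLG2 went from 0.349 ± 0.0295 to 0.809 ± 0.094 in SK-Hep1 and from 1.14 ± 0.0886 to 2.83 ± 0.144 in SKBR3, and overlapped in A375 batch 2 (0.635 ± 0.0456 and 0.704 ± 0.119). MPC1 to MPC2 was 0.521 ± 0.0377 with siControl and 0.298 ± 0.0133 with siGCDH in A375 batch 2, and 0.156 ± 0.020 and 0.293 ± 0.0493 in SK-Hep1, and overlapped in SKBR3 (0.911 ± 0.0654 and 0.834 ± 0.0956). PDP1 over the sum of PDK2 and PDK3 went from 1.24 ± 0.0796 to 2.09 ± 0.325 in SK-Hep1 and from 0.221 ± 0.0313 to 0.114 ± 0.0157 in SKBR3, and overlapped in A375 batch 2 (2.33 ± 0.583 and 2.28 ± 0.388). PCK2 to PC was 0.783 ± 0.131 with siControl and 0.441 ± 0.0322 with siGCDH in A375 batch 2, and 0.817 ± 0.0488 and 0.479 ± 0.0402 in SK-Hep1. It overlapped in SKBR3 (2.59 to 3.33 and 2.44 to 3.41) and in A375 batch 1 (0.537 ± 0.255 and 0.695 ± 0.514).

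**Figure D5:**
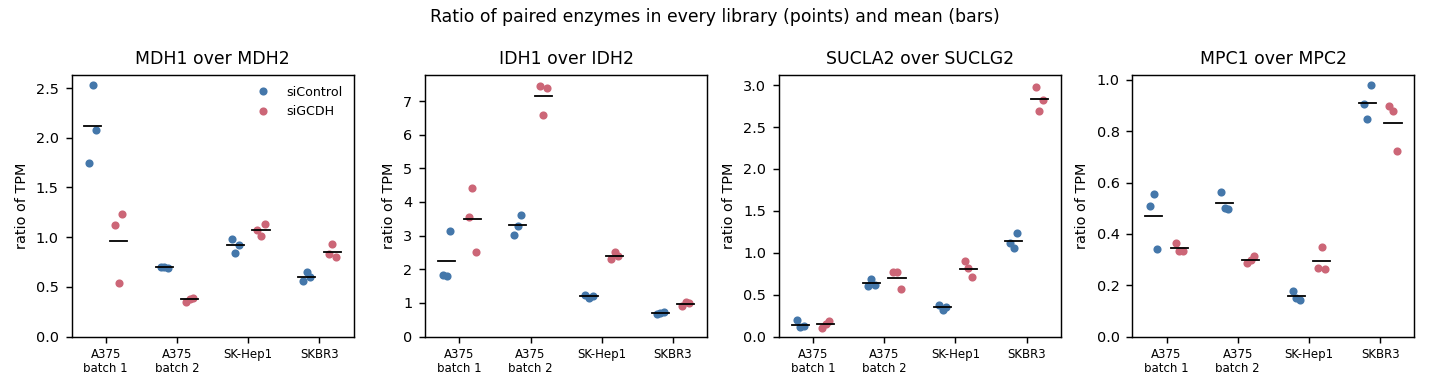
Ratio of TPM of paired genes in every library (points) and its mean (bars) by line and batch, with siControl in blue and siGCDH in red. The MDH1 to MDH2 ratio is lower with siGCDH in A375 (0.373 against 0.696 in batch 2), and the SUCLA2 to SUCLG2 ratio is higher in SK-Hep1 and SKBR3. The A375 batch 1 ratios come from a 3′ kit and are not comparable in level with the others.

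Summed over the 32 members, siGCDH libraries held 93.3% of the siControl TPM in A375 batch 2, 104% in SK-Hep1, 88.3% in SKBR3 and 72.9% in A375 batch 1. With the chromosome 21 rows removed and TPM rescaled, the sum in batch 1 was 90.3% of siControl. By role, the members from 2-oxoglutarate to oxaloacetate stood at 86.2% in A375 batch 2, 116% in SK-Hep1, 89.4% in SKBR3 and 63.4% in A375 batch 1 (78.6% without the chromosome 21 rows). In A375 batch 2 that sum went from 1167 to 1007 TPM, and MDH1 alone from 295 to 149.6 TPM. The members of glutamate and aspartate stood at 96.9% in A375 batch 2, 89.0% in SK-Hep1 and 73.6% in SKBR3. Their sum in A375 batch 1 was 83.7% of siControl, and 104% without the chromosome 21 rows. In SKBR3 their sum went from 419 to 308 TPM, and GLUD1 alone from 157 to 75.3 TPM. Such sums follow their most abundant members, and in A375 batch 1 the weight of each member rests on a length correction that does not suit its kit.

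A list of 34 neighbouring genes of the pathway, chosen with earlier results of these data known, was read beside the members. In A375 batch 1, 0 of 27 tested rose and 5 fell (18.5% called, against 7.91% of all genes), led by SDHC (log2 change -0.92), SDHA (-0.98) and SDHAF1 (-2.31), which encode subunits and an assembly factor of succinate dehydrogenase. In batch 2, 2 of 30 rose and 8 fell (33.3%, against 33.6% of all genes), led by SDHAF1 (-1.71), ASNS (0.92), which makes asparagine from aspartate and glutamine, and ACLY (-0.75), which splits citrate in the cytosol. In SK-Hep1, 10 of 31 rose and 12 fell (71%, against 55.5% of all genes), led by ACLY (-2.47) and the lactate dehydrogenase genes LDHA (-0.83) and LDHB (-0.66). Within SKBR3, 12 of 32 rose and 10 fell (68.8%, against 62.1% of all genes), led by LDHA (-0.73), ACLY (-1.04) and ASNS (-1.23). ACLY, which uses the citrate that CS makes, was lower with siGCDH in all 4 comparisons. In A375 batch 1 the median change of all genes was -0.20, and 0.07 without the chromosome 21 rows, which limits what falls there can show.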

How the data were processed

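Gene levels were measured by single-end RNA sequencing in 24 libraries, 8 groups of 3 taken from the labels. The authors deposited 1 table of TPM, computed with cutadapt 2.3, STAR 2.7.0d, RSEM 1.3.1 and hg38, per the submitters' processing notes. RSEM divides reads among near-identical copies, and TPM keeps no read totals, so the depth and its precision are unknown. Neither the annotation version nor the strand setting is stated in those notes.

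Values were transformed to log2(TPM + 1) and fitted with limma 3.58.1 (lmFit, eBayes with trend) in R 4.3.3, within each line and batch (6 libraries), as interactions (12 libraries) and for siControl levels (9 libraries), over genes whose mean reached 1 TPM. Tests were two-sided, and p-values were Benjamini-Hochberg adjusted over all genes of a fit. The fits were run on simulated data with planted shifts and independent noise, where the median estimate of the shifts was the only required check. That run does not bear on well-to-well spread or on scaling in these libraries. GENCODE 29 UTRs were searched in Python 3.11.15.

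Members and lists were chosen with earlier results of these data known. Members shown in every library were, per comparison, the 5 largest called changes within a line (at least 5 TPM in the higher group), the 4 largest differences and levels, and members called in 3 comparisons the same way or in opposite ways. Listed genes were the 3 with the smallest adjusted p. Other members shown by library were chosen after their values were seen. Alternatives were pseudocounts of 0.1 and 5, no filter or 5 TPM, median and quantile scaling, robust or untrended eBayes, a block for the replicate number, 1 fit of all libraries, removal of 6 chromosome 21 rows, and leaving out each library.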

Additional observations from a re-analysis of the deposited data

Results flagged for a closer look

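The effect of siGCDH on these members differed between lines or batches by a test of the difference itself (limma interaction, adjusted p under 0.05), and the values are log2 differences. Between A375 batch 2 and SK-Hep1 the largest were ACO1 (1.77), MPC1 (-1.59), MDH1 (-1.39) and GLUD1 (1.25). Between A375 batch 2 and the libraries labelled SKBR3 they were MDH1 (-1.04), GLUD1 (0.95), SUCLG2 (0.90) and PDK3 (-0.85). Between SK-Hep1 and SKBR3 they were PDP1 (1.13), MPC1 (1.11), ACO1 (-1.10) and PDK3 (-1.08). PDK3 was under 1 TPM in both SK-Hep1 groups, so it entered this test through its SKBR3 level, and its difference ran from -1.72 to -0.61 over the alternatives. The differences other than that of PDK3 between SK-Hep1 and SKBR3 kept their direction and their call in every alternative run. Between the A375 batches it was IDH1 (0.73), whose call was lost in 15 of 23 alternatives.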

How the results depend on the processing

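Of 1769 recomputed values, 1593 kept their direction and side of the threshold, or stayed within 1.5 times for counts, 127 were no longer past it, 1 came past it, 3 reversed and 45 counts moved by more. In A375 batch 1 the count of members called (1) was 0 without the trend and 0 with the replicate block, 16 in the joint fit of 24 libraries, and 0 to 1 with a library left out. Its count over all genes (1018) was 590 without a filter, 501 with median scaling, 516 with quantile normalization, 85 without the trend, 357 with the replicate block, 5573 in the joint fit, 488 without the chromosome 21 rows and 311 to 592 with a library left out. In A375 batch 2 the joint fit called 6 members, against 12, and 2646 genes, against 5099, and leaving out a library gave 7 (without siControl replicate 1) to 11 members. The joint fit called 15 members in SK-Hep1 (23 in its own fit), 13 in SKBR3 (22) and 6593 genes in SKBR3 (10236). In that fit 7 members differed between A375 batch 2 and SKBR3 (19), 7 between SK-Hep1 and SKBR3 (21) and 7 between the A375 batches (1). Between the batches the count was 2 with a pseudocount of 5 or a 5 TPM filter, 0 without a filter, with median scaling, quantile normalization, without the trend, with the replicate block or without the chromosome 21 rows, and 0 to 3 with a library left out. Under median scaling in SKBR3, IDH1 (-0.10), IDH3B (-0.10) and IDH3G (-0.026) reversed. The cause was not tested. Same-numbered siControl and siGCDH libraries did not deviate together (correlations -0.0275 to 0.0567, with the own number best for 1, 1, 1 and 0 pairs in A375 batch 1, A375 batch 2, SK-Hep1 and SKBR3), so the number was not treated as pairing. With the block, counts within lines stayed within 1.5 times outside A375 batch 1. Limits: read depth is unknown, A375 batch 1 is a 3′ tag library with a wider spread, the libraries labelled SKBR3 lack the high ERBB2 of that line, and median scaling lowers the median change of all genes from 0.18 to 0.07 in SK-Hep1 and from 0.29 to 0.07 in SKBR3.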
